A study of Mus musculus with 5 samples.

Results

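The messenger RNA levels of 7 genes of the Schwann cell, the glial cell that wraps peripheral axons in myelin, were measured in gastrocnemius muscle of mice treated with extracellular vesicles. The genes were Mbp, Pmp22, S100b, Sox10, Prx, Mag and Cnp, chosen by name as nerve myelin genes, but with earlier results of these data known. All 7 were found by their Ensembl identifiers among the 35275 genes in the table. The muscle came from female NSG mice, an immunodeficient strain with no mature T or B lymphocytes and no natural killer cells, at an age of 12 weeks and with the genotype given as Wild Type. Every animal had been given vesicles labelled MCF-10A/miR122 EV, from cells named for a human mammary epithelial line and a liver microRNA, through the tail vein at 2 injections a week for 5 weeks (10 in all, about 10 µg each), and the muscle was taken 2 days after the last of them. The 5 samples form a single group, no untreated muscle was analysed here, and the labels do not say that each sample is a separate animal. The values therefore describe how much RNA of the 7 genes each of the 5 libraries held and how far the libraries lay apart. That spread may be partly technical, and no value shows an effect of the vesicles. Whether the RNA of these genes came from nerve alone was not tested.

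Schwann cells that contact a large axon spiral their membrane around it and compact it into myelin. The program is switched on by transcription factors of the neural crest, led by Sox10 and its target Egr2, after neuregulin from the axon binds ErbB receptors. Compact myelin is held together by adhesive membrane proteins and by Mbp on its inner faces, whereas the uncompacted channels and the surfaces facing the axon and the basal lamina carry other proteins such as Mag, Cnp and periaxin. Skeletal muscle holds such cells along the intramuscular nerve branches that lead to the motor end plates.

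The stretches of DNA just before the start sites are shown for 4 of the 7 genes, because these are the windows with a match to the core letters of a SOX or EGR site, together with S100b, which was lowest in the library where the other 6 were highest. RefSeq (GRCm38.p6, the build that mm10 also names) gave 10 windows for 5 of the genes, with none for Sox10 and Mbp, and each sequence below covers the bases from -250 to -51 before a start site, 5′ to 3′ on the strand of the gene. Capitals mark the match. The SOX core was searched as ACAAAG and the EGR core as GCGTGGG, each on both strands. No printed window held both.
Cnp (chr11:100574689-100574888, plus strand): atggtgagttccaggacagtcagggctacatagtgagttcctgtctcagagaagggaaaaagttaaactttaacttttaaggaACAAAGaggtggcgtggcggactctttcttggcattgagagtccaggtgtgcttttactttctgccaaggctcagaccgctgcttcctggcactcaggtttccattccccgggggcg
Mag (chr7:30914973-30915172, minus strand): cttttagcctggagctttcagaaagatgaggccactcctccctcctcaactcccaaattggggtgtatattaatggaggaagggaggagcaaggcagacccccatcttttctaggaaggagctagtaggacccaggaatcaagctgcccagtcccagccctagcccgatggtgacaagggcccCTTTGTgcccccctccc
Prx (chr7:27499074-27499273, plus strand): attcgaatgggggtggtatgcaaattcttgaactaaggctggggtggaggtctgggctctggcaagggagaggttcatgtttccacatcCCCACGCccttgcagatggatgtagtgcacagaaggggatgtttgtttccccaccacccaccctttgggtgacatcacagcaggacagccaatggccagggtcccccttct
S100b (chr10:76253586-76253785, plus strand): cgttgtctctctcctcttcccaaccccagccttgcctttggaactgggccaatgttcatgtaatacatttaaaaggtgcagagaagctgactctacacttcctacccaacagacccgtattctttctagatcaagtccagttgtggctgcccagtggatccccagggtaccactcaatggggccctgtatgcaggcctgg
The SOX letters stood at -167 in Cnp on the strand of the gene and at -67 in Mag on the opposite strand, where they lay in 2 overlapping windows, and they were in 3 of the 10 windows, against 13.6% of 32851 windows of all genes. The EGR letters stood at -161 in Prx on the opposite strand and are in 3.27% of all windows. The 4 windows of Pmp22 and the window of S100b held neither. These are matches of letters in short windows and no measure of binding.

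The proteins of compact myelin were the most abundant of the 7. Pmp22 (ENSMUSG00000018217, chromosome 11, 63128982 to 63159547, plus strand), a small membrane protein of compact peripheral myelin whose gene dose is altered in inherited neuropathies, was at 27.7, 38.2, 56.7, 33.6 and 33.6 FPKM in libraries 1 to 5. FPKM are reads per kilobase of gene and per 1000000 reads of the library. Levels of different genes can be set side by side as far as the gene lengths used are right. The length recovered from the values equalled the annotated exon length for S100b only (1484 bases). It was shorter for the others, such as Mbp (4797 against 8469), Mag (2434 against 4072), Cnp (2904 against 3639) and Prx (5433 against 5579). How the order of levels depends on these lengths was not tested. Library 3 stood above the other libraries for Pmp22 and library 1 below them, with a mean of 37.9 ± 11.1 FPKM (SD, n = 5). Mbp (ENSMUSG00000041607, chromosome 18, 82475146 to 82585637, plus strand), which binds the facing inner leaflets of the myelin membrane, was at 10.7, 14.5, 19.5, 11.0 and 9.55 FPKM. Its order was library 3, then library 2, with libraries 1, 4 and 5 close together below them, and the mean was 13.1 ± 4.03 FPKM (SD, n = 5). The Mbp locus has 16 annotated transcripts, among which the table does not distinguish, and shorter and longer forms of the locus are also used outside myelin.

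Proteins of the uncompacted parts of the sheath were lower. Cnp (ENSMUSG00000006782, chromosome 11, 100574904 to 100591729, plus strand), the cyclic nucleotide phosphodiesterase of the cytoplasm of glial cells, was at 4.66, 4.91, 6.26, 4.61 and 4.09 FPKM. Only library 3 stood apart for Cnp, and the mean was 4.90 ± 0.812 FPKM (SD, n = 5). Exons of Cnp share 154 bases with Dnajc7 on the other strand, a chaperone gene at 22.9 FPKM on average and 26.2 FPKM in library 3, and no source used here says whether the counting used strand. Mag (ENSMUSG00000036634, chromosome 7, 30899176 to 30914873, minus strand), an adhesion protein on the membrane that faces the axon, was the least abundant, at 0.807, 1.33, 1.40, 0.931 and 0.744 FPKM. Libraries 2 and 3 lay above the other libraries for Mag, whose mean of 1.04 ± 0.305 FPKM (SD, n = 5) rested on 45 to 60 reads per library.

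Periaxin, a scaffold protein that ties the outer Schwann cell membrane to dystroglycan through Drp2, is encoded by Prx (ENSMUSG00000053198, chromosome 7, 27499324 to 27520214, plus strand). Prx was at 3.36, 4.97, 6.95, 3.55 and 3.86 FPKM, with a mean of 4.54 ± 1.49 (SD, n = 5). As for Mbp, library 3 was highest, library 2 next, and the other libraries lay close together.

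The transcription factor and the calcium-binding marker behaved differently from each other. Sox10 (ENSMUSG00000033006, chromosome 15, 79154908 to 79165240, minus strand), the factor that sets Schwann cell identity, was at 2.27, 3.62, 3.67, 2.86 and 2.39 FPKM, with a mean of 2.96 ± 0.661 (SD, n = 5). Libraries 2 and 3 were nearly equal and above the other libraries. S100b (ENSMUSG00000033208, chromosome 10, 76253853 to 76261159, plus strand), a calcium-binding protein used as a stain for Schwann cells and also made by fat cells, was at 1.53, 2.07, 1.41, 1.81 and 2.04 FPKM, with a mean of 1.77 ± 0.297 (SD, n = 5). It was lowest in library 3, where it rested on 35 reads, and its intervals for counting error overlapped in all 5 libraries (0.985 to 1.97 FPKM in library 3 and 1.57 to 2.69 in library 2, exact Poisson, 95%).

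**Figure D1:**
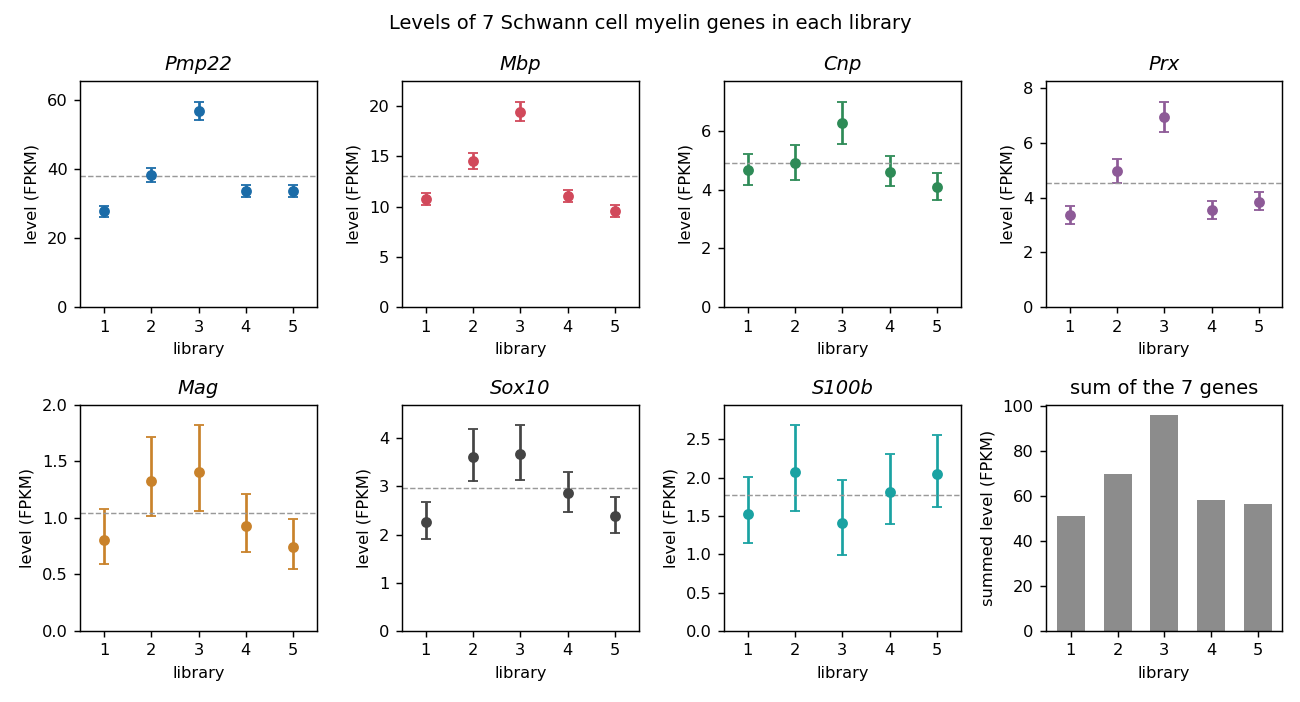
Level in FPKM (vertical axes, from 0) of each of the 7 genes and their sum in libraries 1 to 5 (horizontal axes); points are single libraries, bars on points are 95% exact Poisson intervals for counting error only, and dashed lines are means over 5 libraries. Pmp22, Mbp, Prx, Cnp, Mag and Sox10 are highest in library 3, S100b is lowest there, and the sum runs from 51.0 FPKM in library 1 to 95.8 FPKM in library 3.

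Ordered by mean deposited FPKM, the genes ran Pmp22, Mbp, Cnp, Prx, Sox10, S100b and Mag. In 5 of the 6 neighbouring pairs the order was the same in all 5 libraries, with mean log2 ratios, on the log2(FPKM + 1) scale, of 1.47 ± 0.17 for Pmp22 over Mbp, 1.22 ± 0.21 for Mbp over Cnp, 0.46 ± 0.20 for Prx over Sox10, 0.51 ± 0.29 for Sox10 over S100b and 0.45 ± 0.29 for S100b over Mag (SD, n = 5). The exact two-sided sign-flip permutation test gave p = 0.0625 for each of these, the smallest that 5 libraries allow, and 0.075 after Benjamini-Hochberg adjustment over the 6 pairs, so no pair could pass 0.05. Cnp and Prx did not separate, since Cnp was higher in 3 libraries and Prx in libraries 2 and 3, with a mean log2 ratio of 0.12 ± 0.21 (SD, n = 5; p = 0.375, same exact test). By unlogged ratio, S100b and Mag were level in library 3, at 1.01, against 1.56 to 2.75 in the other libraries.

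Of the 7 genes, 6 had their highest level in library 3 and S100b in library 2. Of the 10710 genes with a mean level of at least 1 FPKM, 37.4% were highest in library 3, 23.2% in library 2, 21.2% in library 1, 10.5% in library 4 and 7.68% in library 5. All 7 genes passed that filter, Mag by a small margin. Pmp22, Sox10 and Prx were lowest in library 1, where 10.2% of all genes tested were lowest, Mbp, Mag and Cnp in library 5 (24.9%) and S100b in library 3 (17.1%). None was lowest in library 2 (9.8%) or library 4 (38%). Library 3 was also the shallowest, at 16674504 reads against 18533514 to 25407988 in the others. The summed level of the 7 genes was 51.0, 69.6, 95.8, 58.4 and 56.3 FPKM in libraries 1 to 5, or 144, 197, 268, 159 and 151 reads per 1000000 reads, so library 3 held 1.88 times the level of library 1. A score, the mean over the 7 genes of the deviation of log2(FPKM + 1) from each gene's own mean, was -0.22, 0.14, 0.34, -0.10 and -0.16, against medians over all genes tested of 0.03, 0.05, 0.06, -0.10 and -0.07. In libraries 2, 3 and 5 the deviation of these genes thus had the sign of the general shift and was larger. In library 4 it was about equal to the general shift, and in library 1 it was opposite in sign (-0.22 against 0.03). In bulk tissue, more Schwann cells, more RNA per cell and RNA of these genes from other cells cannot be told apart. Muscle fibre markers, described below, also differed between libraries, and their part was not tested.

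Library 3 exceeded the pooled reads of the other 4 libraries by 1.79-fold for Prx (1.64 to 1.96, 95% exact interval for counting error), 1.73-fold for Mbp (1.63 to 1.83), 1.72-fold for Pmp22 (1.62 to 1.81), 1.51-fold for Mag (1.11 to 2.04), 1.38-fold for Cnp (1.21 to 1.57) and 1.34-fold for Sox10 (1.13 to 1.59). For S100b the ratio was 0.761 (0.519 to 1.09), an interval that lies below the lower bounds of the other 6 genes. Against the next library alone, on the deposited scale, the gap was larger than counting error for Pmp22 (1.48-fold, 1.38 to 1.60), Prx (1.40-fold, 1.24 to 1.58), Mbp (1.34-fold, 1.24 to 1.44) and Cnp (1.28-fold, 1.08 to 1.51). For Sox10 (1.01-fold, 0.816 to 1.26) and Mag (1.06-fold, 0.722 to 1.54) libraries 3 and 2 could not be separated at this depth. Such intervals compare these libraries and not conditions.

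Library 2 came next for the same 6 genes, so that libraries 2 and 3 were the highest pair for 6 of 7, against 25.2% of all genes tested. With library 3 left out, all 7 genes, S100b included, were highest in library 2, against 41.1% of all genes tested. This second place depended on how the libraries were scaled. Under median-of-ratios scaling, which shifts whole libraries by -0.10 (library 2) to 0.16 (library 4) on the log2 scale, library 4 passed library 2 for Pmp22 (37.5 against 35.7) and Cnp (5.15 against 4.59) and library 5 was highest for S100b (2.19), so that libraries 2 and 3 were the highest pair for 4 of 7 genes (12.3% of all genes tested) and library 2 led 4 of 7 without library 3 (22.4%). The 6 genes highest in library 3 stayed highest there under that scaling, against 27.0% of all genes tested. For Cnp the next library was then library 4, at 5.15 against 5.87 in library 3. The intervals for the gap to the next library were not computed under that scaling.

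**Figure D2:**
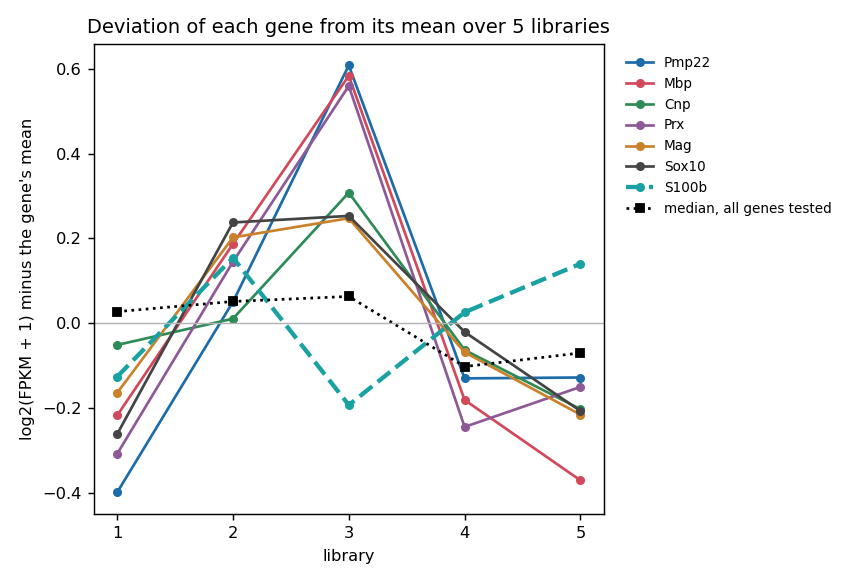
Deviation of log2(FPKM + 1) from the gene's mean (vertical axis) in each library (horizontal axis; library numbers have no order, and lines only join the points of a gene); the dotted line is the median over all 10710 genes tested. At library 3 the 6 other genes lie between 0.25 and 0.61 and S100b (dashed) at -0.19, while the median of all genes lies at 0.06.

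Pmp22 made up 54.2% to 59.7% of the summed FPKM of the 7 genes, Mbp 17.0% to 21.0%, Cnp 6.53% to 9.13%, Prx 6.09% to 7.26%, Sox10 3.83% to 5.20% and Mag 1.32% to 1.91%. Over the 15 pairs without S100b, the SD of the log2 ratio between libraries had a median of 0.21 (0.11 to 0.26). The steadiest pair was Pmp22 to Prx, at 8.25, 7.69, 8.15, 9.44 and 8.71, and the ratio of Sox10 to Mag, at 2.81, 2.72, 2.61, 3.07 and 3.22, varied with an SD of 0.12 where counting error alone gives 0.23. The share of S100b was 1.48% in library 3 and 2.98% to 3.63% in the others, and the 6 pairs with S100b had a median SD of 0.53 (0.42 to 0.57). Relative to Sox10, S100b was at 0.674, 0.573, 0.385, 0.632 and 0.853.

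**Figure D3:**
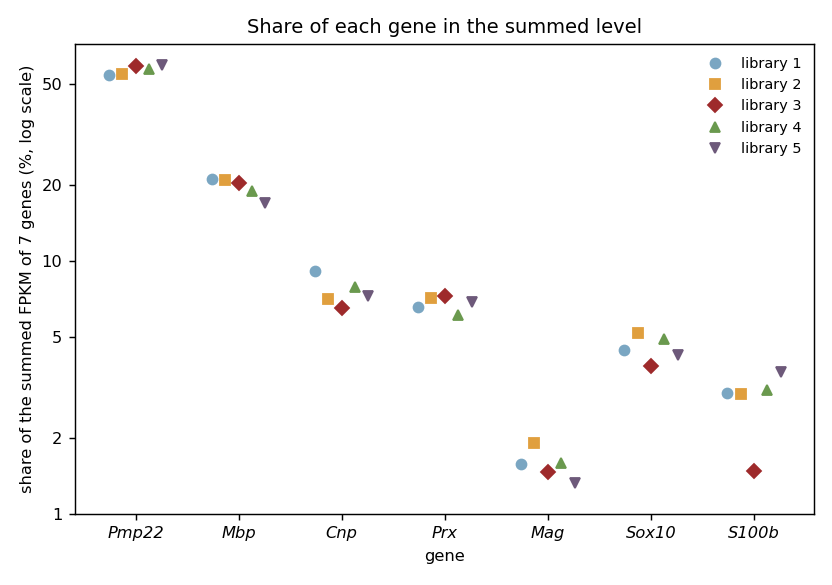
Share of each gene (horizontal axis) in the summed FPKM of the 7 genes in percent (vertical axis, log scale), with a marker for each of libraries 1 to 5. The shares of Pmp22, Mbp, Cnp, Prx, Mag and Sox10 lie within narrow bands, and the share of S100b in library 3 (1.48%) lies below those of the other libraries (2.98% to 3.63%).

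In a chi-square test of reads against library totals, adjusted over all 10710 genes, 6 of the 7 genes varied between libraries by more than counting error (adjusted p under 0.05), and so did 87.9% of all genes tested, so that share is near the background. The adjusted p was 3.3e-99 for Mbp, 1.1e-94 for Pmp22, 2.8e-42 for Prx, 2.0e-06 for Sox10, 8.2e-06 for Cnp and 0.0017 for Mag, from 262 (Mag) to 7180 (Pmp22) reads in total. For S100b, with 285 reads in total, the adjusted p was 0.225, and a difference between libraries was not detectable at this depth. Without library 3 the adjusted p of Cnp was 0.186 and Mag fell under the filter, so that 4 of 6 genes passed, against 78.8% of all genes tested.

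The spread between libraries was also set against that of genes of the same level. In limma, the squared spread (SD) of each gene was divided by the square of the trend of spread over level and tested with an F distribution. None of the 7 genes passed after Benjamini-Hochberg adjustment (adjusted p 0.948 to 0.990), nor did any of the 10710 genes tested (0%), of which 616 and none of the 7 had an unadjusted p under 0.05. The ratio of squared spread to squared trend was 4.40 for Mbp, 4.20 for Pmp22 and 3.49 for Prx, at percentiles 90.4, 89.7 and 87.6 of all genes tested. It was 1.48 for Sox10, 0.986 for Cnp, 0.919 for Mag and 0.556 for S100b. Without squaring, the SD of Mbp was 0.385 against a trend of 0.184. The median ratio of squares over the 7 genes was 1.48, against 0.967 over all genes tested. The median coefficient of variation of the 7 genes was 29.2%, against 16.3%.

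**Figure D4:**
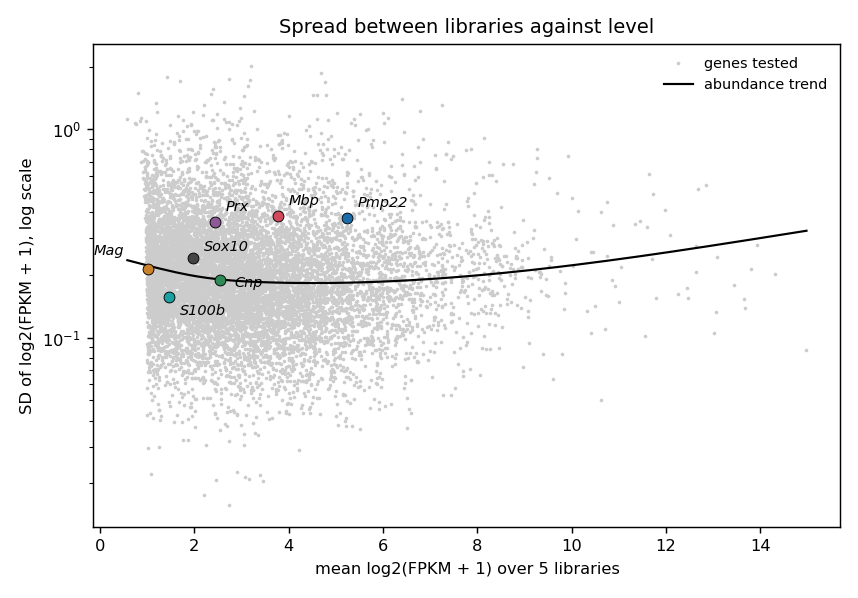
SD of log2(FPKM + 1) over 5 libraries (vertical axis, log scale) against mean log2(FPKM + 1) (horizontal axis) for the 10710 genes tested (grey), with the abundance trend (line) and the 7 genes (coloured). Mbp, Pmp22 and Prx lie above the trend and S100b below it, all within the cloud of other genes.

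Of 8 other proteins of the myelin sheath, 7 reached 1 FPKM and all 7 varied by more than counting error, with 5 highest in library 3 and 2 in library 2 (4 in library 3 under median-of-ratios scaling). Of all genes tested, 87.9% varied by more than counting error, so that count is near the background. The shares of all genes tested were 37.4% highest in library 3 and 23.2% in library 2 (27.0% in library 3 under median-of-ratios scaling). Cd9, a tetraspan protein also found in many other cells, was at 14.1, 18.7, 20.8, 14.0 and 11.9 FPKM, and Mal, a raft protein of myelin, at 1.92, 2.16, 3.99, 1.96 and 2.49.

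Partners of periaxin and of the Schwann cell basal surface were highest in library 3 for 8 of 10 genes (7 under median-of-ratios scaling), against 37.4% of all genes tested (27.0%). All 10 varied by more than counting error, as did 87.9% of all genes tested, so this is near the background. Drp2, which binds periaxin, was at 1.12, 2.09, 2.71, 1.36 and 1.63 FPKM, an order like that of Prx. Dag1, the dystroglycan gene, was at 60.9, 60.6, 62.3, 46.8 and 60.6, Itgb1 at 51.7, 61.6, 84.1, 46.2 and 60.1 and the laminin chain Lamc1 at 14.2, 16.1, 20.8, 11.3 and 15.6. These last 3 are also made by muscle fibres and fibroblasts, so their level is not that of nerve alone.

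Among 10 other transcription factors of the lineage, 7 reached 1 FPKM, and all 7 varied by more than counting error, as did 87.9% of all genes tested. Of the 7, 6 were highest in library 3 (5 under median-of-ratios scaling), against 37.4% of all genes tested (27.0%). Egr2, the zinc finger factor that drives myelin genes and also an early response gene in other cells, had the largest ratio of highest to lowest library among the 7, at 0.515, 3.20, 3.64, 0.311 and 0.504 FPKM. It was high in libraries 2 and 3 and low in the others, and its ratio of squared spread to squared trend lay at percentile 98.6 of all genes tested. Jun, a factor of repair Schwann cells and an early response gene as well, was at 23.7, 56.8, 55.6, 37.1 and 38.3 FPKM, also highest in those libraries. The broadly expressed factors Yy1 (16.7 to 20.3 FPKM), Tead1 (14.1 to 21.1) and Nab1 (3.74 to 6.15) had the highest means in the list, and Pou3f1, which marks the step before myelination, was at 0.936 ± 0.140 FPKM (SD, n = 5).

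Both ErbB receptors of the neuregulin list were highest in library 3. Erbb3, the neuregulin-binding receptor of Schwann cells, was at 1.47, 1.76, 2.21, 0.84 and 1.09 FPKM and its partner Erbb2 at 1.34, 1.65, 2.45, 1.21 and 1.37. They were 2 of the 5 genes of that list at 1 FPKM or more, against 37.4% of all genes tested highest in library 3, and the other 3 were highest elsewhere. All 5 varied by more than counting error, as did 87.9% of all genes tested. Of the genes below 1 FPKM, Igf1r was also highest in library 3, at 0.564, 0.409, 1.58, 0.477 and 0.517 FPKM, as were Lgi4, Adgrg6 and Nrg1. Adam22, the remaining gene below 1 FPKM, was lowest in library 3, at 0.651, 0.852, 0.247, 0.486 and 0.421 FPKM. Nrg1, the ligand, had at most 4 reads in a library. The proteases Bace1 (5.07 to 7.38 FPKM) and Adam17 (4.37 to 6.12), which cut neuregulin and many other proteins, were the most abundant of the list and were highest in libraries 1 and 2. Of 14 myelin lipid synthesis genes, 10 reached 1 FPKM, and all 10 varied by more than counting error, as did 87.9% of all genes tested. Of these 10, 9 were highest in library 3 (8 under median-of-ratios scaling), against 37.4% of all genes tested (27.0%). They were led by Hmgcs1 (8.71 to 14.2 FPKM) and Scd2 (4.13 to 16.9), whereas Fdft1 (19.4 to 27.9) was lowest in library 3. These enzymes act in sterol and fatty acid synthesis of all cells. Below 1 FPKM on average lay Fa2h (0.758), Ugt8a (0.358), Gal3st1 (0.224) and Degs2 (0.147). Each was highest in library 3, but they rested on 6 to 50 reads per library.

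Proteins of the nodes and of junctions were split. Cadm4, an adhesion protein of the internode, was at 4.02, 5.34, 8.74, 4.12 and 3.90 FPKM and Cldn19, a claudin of Schwann cell junctions, at 0.869, 1.29, 2.13, 1.03 and 1.14, both highest in library 3. The more abundant Cldn5 (9.69 to 18.7 FPKM), Ank3 (7.67 to 9.18) and Mpdz (6.63 to 9.86), which other cells of muscle also express, were highest in libraries 4, 2 and 1. Over the 6 pathway lists together, 45 of 64 genes reached 1 FPKM, all 45 varied by more than counting error (87.9% of all genes tested, so this is near the background), none passed the limma test, and 32 (71.1%) were highest in library 3, against 37.4% of all genes tested. Under median-of-ratios scaling 28 were, against 27.0% of all genes tested.

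**Figure D5:**
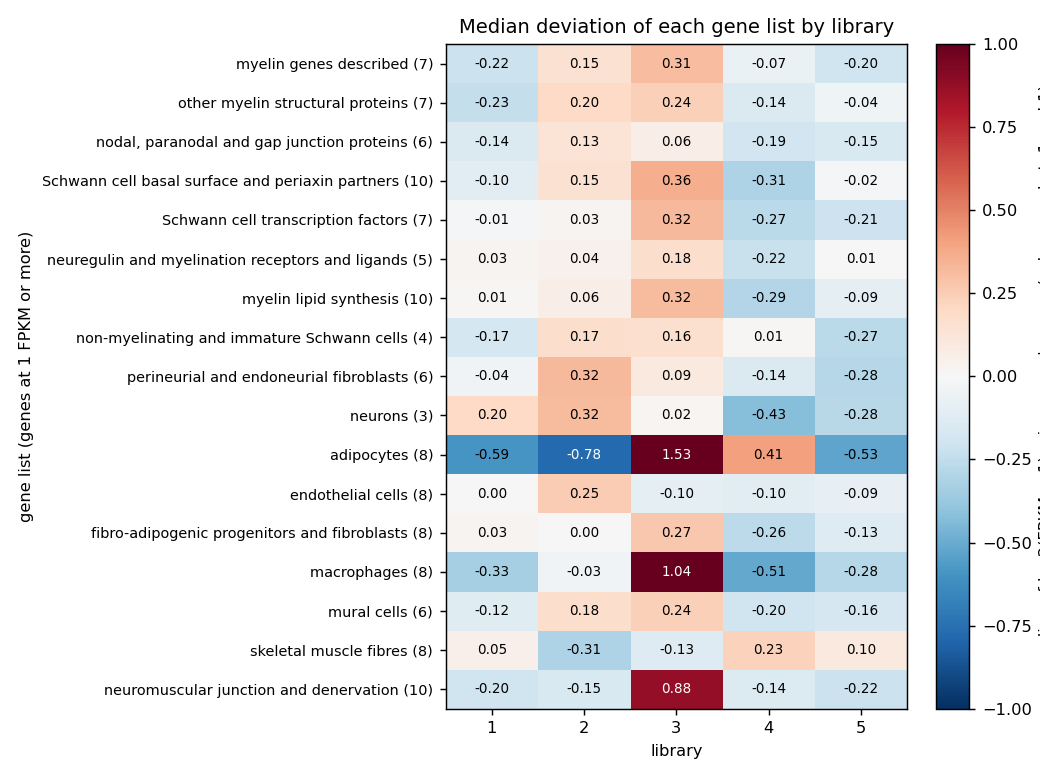
Median over the genes of each list at 1 FPKM or more (number in parentheses, lists with at least 3 such genes) of the deviation of log2(FPKM + 1) from the gene's mean, by library; colours end at -1 and 1, and numbers give the medians. The myelin genes stand at 0.31 in library 3 and 0.15 in library 2, the adipocyte list at 1.53 and the macrophage list at 1.04 in library 3, and the endothelial list at -0.10 there.

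Markers of other cells also differed between libraries, and their part in the results above was not tested. The counts below stand against 37.4% of all genes tested highest in library 3 (27.0% under median-of-ratios scaling). All 8 adipocyte markers were highest in library 3 (7 under median-of-ratios scaling), with a summed level of 557 FPKM there against 215 to 382 elsewhere, and Cfd was at 31.6, 29.8, 203.2, 109 and 45.7 FPKM and Adipoq at 5.64, 3.55, 33.6, 14.0 and 4.45. The sum was 236, 249, 557, 382 and 215 FPKM in libraries 1 to 5. S100b, which fat cells also make, was lowest in that library, on 35 reads. Its difference between libraries was not detectable at this depth (chi-square test, adjusted p = 0.225). Whether fat cells contributed to its level was not tested. All 8 macrophage markers were highest in library 3, with a summed level of 356 FPKM against 91.6 to 121, and so were 6 of 8 genes of fibro-adipogenic progenitors and fibroblasts (4 under median-of-ratios scaling; 1187 FPKM against 680 to 877) and 7 of 10 genes of the neuromuscular junction and denervation list (141 FPKM against 71.3 to 89.3), which includes Ncam1 (8.35 FPKM in library 3 against 1.65 to 3.40). None of the 8 endothelial markers was highest in library 3, whose sum of 92.7 FPKM was the lowest (to 119 in library 2). Mural cell markers summed to 186 FPKM in library 3 and 158 in library 2, against 119 to 140.

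Of the perineurial and endoneurial markers, 6 of 9 reached 1 FPKM and 5 of these varied by more than counting error (87.9% of all genes tested). Libraries 1, 2 and 3 were highest for 2 markers each, against 21.2%, 23.2% and 37.4% of all genes tested. Slc2a1, the glucose transporter of the perineurium and of other cells, was at 4.94, 7.29, 8.93, 3.82 and 4.17 FPKM, and Wif1 was highest in library 1, at 6.05, 4.85, 3.42, 3.86 and 3.24. Markers of non-myelinating and immature Schwann cells went several ways. Ncam1, which regenerating fibres also express, had the highest mean of that list, and Ngfr, the low-affinity neurotrophin receptor, was lowest in library 2, at 1.39, 0.720, 1.62, 1.66 and 1.32 FPKM. Of the repair Schwann cell list, 2 of 10 genes reached 1 FPKM, Jun and Ngfr, and of the satellite cell list 1 of 4, Chodl, which was highest in library 2. Ngfr, Ncam1, Cldn5, Itgb4 and Artn are among the genes that stand in more than 1 list.

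Oligodendrocytes and melanocytes, which also express Sox10, were checked by their own lists. No oligodendrocyte marker reached 1 FPKM on average, and the summed level of the 8 genes was 1.23 to 3.28 FPKM, with 15 reads of Mog in all 5 libraries together and 2 of Olig2, but 364 of Aspa and 173 of Mobp, against 262 of Mag and 285 of S100b. Of the melanocyte markers only Mitf, which muscle also expresses, reached 1 FPKM, and Tyr, Tyrp1 and Mlana had 11, 10 and 6 reads in all 5 libraries together, against 148 of Dct. Markers of skeletal muscle fibres, the labelled tissue, summed to 93338, 75286, 83464, 104017 and 98709 FPKM in libraries 1 to 5. That sum was lowest in libraries 2 and 3, and since FPKM divides by the library total, the levels of all other genes depend on that share. Its part in the order of the libraries was not tested.

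Profiles over the 5 libraries were compared by the root mean square distance between centred log2(FPKM + 1) values, which for 5 libraries is a description only. Among the genes nearest to the mean profile of the 7 genes were Yif1b (distance 0.01), Rhoj (0.02), Tgfb3 (0.02) and Rassf2 (0.03), followed by Anapc7, Parvb, Gna12, Tspan11 and Armc10. Among the 7, Sox10 and Mag were nearest to each other (0.05), with 6 other genes nearer to Sox10 and 17 nearer to Mag. Pmp22 and Prx were nearest to each other (0.08), with 16 other genes nearer to Pmp22 and 48 nearer to Prx. Mbp was nearest to Prx (0.11), with 107 other genes nearer. Cnp was nearest to Mag (0.10), with 858 other genes nearer. For S100b the nearest of the 7 was Mag, at 0.26, and 59.7% of all genes tested lay nearer. By gene, the closest profile was that of Olfml3 for Mbp, Cybc1 for Pmp22, Zfp874a for S100b, Use1 for Sox10, Cdc25b for Prx, Parn for Mag and Nfatc4 for Cnp. With 10710 genes and 5 libraries, close profiles are common.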

How the data were processed

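Poly-A selected RNA from about 20 mg of muscle was sequenced, per the labels. The deposited table gives FPKM values, into which the authors had turned reads by gene length and library total. The submitters' processing notes list the build mm10 with HTSeq 0.6.1, STAR 2.5, TopHat, edgeR and DESeq2, without roles. Strand setting and annotation are not given in these sources. Reads were recovered from the steps of the values, by finding the library totals (16674504 in library 3, the shallowest, to 25407988 in library 5) and a length that made each gene whole within 0.001 of a read, for 20840 of 20840 genes above 0, of which 4544 at their annotated length. Among the myelin genes, only S100b was recovered at its annotated length. Of 35275 identifiers, 34490 matched GENCODE M21 (GRCm38). Zero reads allow up to 0.118 to 0.180 reads per 1000000 reads. Intervals treat reads as independent and cover counting error only, and the chi-square test treats reads in the same way. Copied reads are not independent molecules, so the intervals may be too narrow and the chi-square p too small.

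The 10710 genes with a mean of at least 1 FPKM entered a chi-square test of reads and a one-sided F test from limma 3.58.1 (R 4.3.3) on log2(FPKM + 1), a scale that understates changes of low genes. The F test had 4 and 3.93 degrees of freedom, and both had Benjamini-Hochberg adjustment at 0.05. Both tests were checked on simulated data, where the limma test called only very large spreads. Other tools were scipy 1.17.1, numpy 2.4.6, matplotlib 3.10.9 and pandas 2.3.3 in Python 3.11.15. The genes and the 20 lists of other genes (6 of pathways, 14 of markers) were chosen with earlier results of these data known. The rule for named genes took the 7 genes, the 3 highest of each pathway list, the 2 highest of each marker list, and the 10 nearest profiles, with the 3 nearest per gene. Adipoq, Cadm4, Cldn19, Drp2, Egr2, Erbb3, Pou3f1, Nrg1, Igf1r, Lgi4, Adgrg6, Adam22, Ngfr, Itgb4, Artn, Mog, Olig2, Tyr, Tyrp1 and Mlana were named after their values were seen. So were Fa2h, Ugt8a, Gal3st1 and Degs2. Dnajc7 was named for its overlap. Alternatives changed the pseudocount, filter, scaling, trend fit, list summary and libraries. Some genes that the rule names are not reported here.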

Additional observations from a re-analysis of the deposited data

Results flagged for a closer look

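Of 83 genes named by the rule, 7 had a library far from the others by Dixon's test, which flags about 1 in 20 groups by chance, and none was among the 7 myelin genes. The highest value was in library 3 for the myelin protein gene Mal (3.99 FPKM), Ncam1 (8.35), Stk17b (4.70), which is among the nearest profiles to Pmp22, and the macrophage genes C1qa (58.4) and Lyz2 (172). Library 4 was far below the others for Dag1, at 46.8 FPKM, and far above them for Gadd45a, at 24.6.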

How the results depend on the processing

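The limma count stayed at 0 of the myelin genes under all alternatives (without library 3, 4 of all 10569 genes tested passed), and 5 of 6 neighbouring pairs had a constant order across libraries at a pseudocount of 0.1 and with each library left out. The count of genes beyond counting error was 6 except at a mean of 10 FPKM or more, where only Mbp and Pmp22 were tested and the count was 2, and with 1 library left out, where it was 4 to 6. The count of myelin genes highest in library 2 was 0 under median-of-ratios scaling and 1 to 7 with 1 library left out, the 7 being without library 3. Those highest in library 5 were 1 (S100b) under median-of-ratios scaling and 0 to 1 with 1 library left out, the 1 being without library 2. Those highest in library 3 stayed at 6 wherever that library was kept. The adjusted chi-square p of S100b ran from 0.0571 (median-of-ratios scaling) to 0.359. The score moved by less than its SD throughout, with library 3 between 0.26 and 0.39 and library 4 changing sign to 0.02 under median-of-ratios scaling. The comparisons of libraries 2 and 3 under that scaling were added after seeing the data. No paired analysis was possible because there is a single group. Depth limits S100b and Mag, with 35 to 77 reads per library.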

Other observations

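Of the 9 neuron markers, several were higher in libraries 1 and 2 than in library 3. Nefl and Nefm, the light and medium neurofilament genes of axons, were at 0.65 and 0.69 FPKM and at 0.37 and 0.38 FPKM in libraries 1 and 2, from 26 to 50 reads, against at most 0.07 FPKM for Nefl and 0.10 FPKM for Nefm in libraries 3, 4 and 5. Snap25, a protein of synaptic vesicle fusion, was at 2.06 and 2.31 FPKM in libraries 1 and 2 against 0.33 to 0.50 in the others. Mobp, a gene of central myelin, was at 0.60 and 1.35 FPKM there against 0.14 to 0.31. Stmn2, a growth-associated gene of neurons, was highest in libraries 2 and 3, at 3.20 and 2.99 FPKM, against 1.76 to 2.36, and so was Tubb3, a neuronal tubulin, at 0.771, 1.01, 0.835, 0.112 and 0.316 FPKM. Nefh, the heavy neurofilament gene, was at 0.502, 0.351, 0.330, 0.158 and 0.365 FPKM and Prph, a filament gene of peripheral neurons, at 1.45, 1.24, 1.16, 0.585 and 1.35. Chat, the acetylcholine synthesis enzyme of motor neurons, was listed at 0 in all 5 libraries, and Slc5a7, its choline transporter, had 1 read in all. These genes were singled out after their values were seen.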
